A study of Rattus norvegicus with 14 samples.

Results

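Polg2, Mknk2 and Pip5k1c are 3 of the 17312 genes measured by polyadenylated RNA sequencing in cultured rat aortic smooth muscle cells. They were selected from measured values, because their transcript levels were higher when the BET bromodomain inhibitor JQ1 was added to platelet-derived growth factor (PDGF). The JQ1 differences of these genes are therefore given as a description, without a test. Each symbol had 1 row in both deposited tables, and all 3 genes passed the filter on low values, which kept genes with a normalised FPKM (fragments scaled to transcript length and library size, after a further normalisation by the authors) of at least 1 in at least 2 libraries.

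The cells came from a commercial supplier, and all 14 libraries were made after 24 h without serum. Unstimulated cells (2 libraries) received neither agent and were sampled at 0 h. PDGF at 925 ng/ml was given for 2 h or 24 h, either alone (3 libraries at each time) or after 3 h with JQ1 at 500 nM (3 libraries at each time). Times are hours of PDGF, and exposure to JQ1 began 3 h earlier. Libraries with JQ1 alone, and unstimulated libraries at later times, were not analysed here, so PDGF and time in culture cannot be told apart in comparisons with 0 h. Nothing in the labels says that the replicates were separate cultures, so the p-values measure only the spread between these libraries, which may be technical. The sample titles carry letters that differ between cells with and without JQ1, and a difference they mark would coincide with JQ1, so the labels cannot separate them.

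Polg2 encodes the accessory subunit of the mitochondrial DNA polymerase, which binds the catalytic subunit (encoded by Polg) and makes it more processive when mitochondrial DNA is copied. Mknk2 encodes MNK2, a kinase activated by the ERK and p38 MAP kinases that phosphorylates the cap-binding protein eIF4E on its scaffold eIF4G. Pip5k1c encodes the gamma form of the type I phosphatidylinositol phosphate kinases, which makes phosphatidylinositol bisphosphate, the lipid that phospholipase C cleaves and that recruits talin to focal adhesions. JQ1 displaces BET proteins from acetylated histones and is known to lower the transcription of many genes and to raise that of a smaller number.

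The promoters of Polg2 and Pip5k1c are shown because Polg2 had the highest ratio of JQ1 plus PDGF to PDGF at 2 h among the members and Pip5k1c the highest at 24 h; 2 of the 3 members, all but Mknk2, matched an entry of the promoter table. Each sequence runs 5′ to 3′ over 250 bases before and 50 after the start of the gene in RefSeq, build GRCr8, and capitals mark matches to the motifs searched. Polg2 lies at chr10:92222677-92222976 and Pip5k1c at chr7:9076667-9076966, both on the minus strand. Mknk2 is on the same chromosome as Pip5k1c in that annotation.
Polg2: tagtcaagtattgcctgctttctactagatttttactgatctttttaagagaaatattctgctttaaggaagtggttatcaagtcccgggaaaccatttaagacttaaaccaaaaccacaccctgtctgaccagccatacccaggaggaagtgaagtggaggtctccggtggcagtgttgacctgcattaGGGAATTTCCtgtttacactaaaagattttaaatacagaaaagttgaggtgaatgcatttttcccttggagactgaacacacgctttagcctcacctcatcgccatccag
Pip5k1c: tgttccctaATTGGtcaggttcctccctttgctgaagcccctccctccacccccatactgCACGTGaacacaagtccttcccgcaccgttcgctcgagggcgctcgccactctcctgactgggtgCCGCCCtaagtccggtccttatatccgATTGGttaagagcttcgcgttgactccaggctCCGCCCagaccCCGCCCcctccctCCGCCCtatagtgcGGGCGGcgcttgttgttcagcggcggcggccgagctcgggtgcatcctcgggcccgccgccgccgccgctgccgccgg

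The windows differed in base composition. GC made up 42.0% of the Polg2 window and 67.0% of the Pip5k1c window, against a median of 51.7% over 33469 rat promoters of the same length. The motifs, chosen after these sequences had been read, were searched on both strands: the TATA box with the letters TATAAA, the CCAAT box, the GC box with the letters GGGCGG, the E-box with the letters CACGTG, the AP-1 motif with the letters TGANTCA, and the NF-kappaB motif. The Polg2 window held 1 match, to the NF-kappaB motif, which 1.11% of all promoters contain. That motif was chosen with this sequence known, so nothing is read from the share. The Pip5k1c window held 5 GC boxes, 2 CCAAT boxes and 1 E-box, motifs that 33.1%, 37.5% and 6.42% of all promoters contain. The TATA box is found in 14.2% and the AP-1 motif in 7.33% of all promoters, and neither was in these windows. None of the matches overlapped another, and a match describes the letters and not a site in use.

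Between 9901 and 11503 genes were above 0 in a library, and the number of reads is unknown because the files hold FPKM. Each of the 6 smooth muscle markers reached 1 unnormalised FPKM in at least 1 library, and their sum was 426 to 18179 per library. Single markers could be low: Myh11 averaged 0.383 normalised FPKM with JQ1 plus PDGF at 24 h, where Tagln averaged 280 and Acta2 87.9. Endothelial markers summed to at most 1.67, with 4 of 5 under 1 in every library and Cdh5 at 0. Leukocyte markers summed to 6.46 to 52.9, with Ptprc at 0, and adventitial fibroblast markers to 6.10 to 130, with Dpt at 0. Spike-in transcripts made up 2.08 ± 0.24% of the unnormalised FPKM with PDGF at 2 h and 2.38 ± 0.081% with JQ1 plus PDGF, and 1.80 ± 0.13% and 2.45 ± 0.21% at 24 h (SD, n = 3 each).

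Polg2 was highest early in JQ1-treated cells. Its normalised FPKM was 50.9, 70.2 and 63.1 in the JQ1 plus PDGF libraries at 2 h (libraries 0, 1 and 2, after the digits that end the column names). With PDGF alone at 2 h the values were 5.27, 4.65 and 4.62. The lowest JQ1 library thus lay far above the highest PDGF library, and the mean was 61.4 ± 9.79 against 4.84 ± 0.37 (SD, n = 3 each), a ratio of 12.7. At 24 h Polg2 stood at 9.78, 9.51 and 10.9 with JQ1 plus PDGF. PDGF alone gave 6.88, 3.11 and 5.05 at that time. The groups again did not overlap, but the ratio of means was 2.01. The unstimulated libraries had the lowest mean, with 1.72 and 3.86. Whether more cells held the transcript or each cell held more cannot be told apart in RNA from whole cultures.

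Mknk2 was high at both times. With JQ1 plus PDGF at 2 h its normalised FPKM was 145, 188 and 182 in libraries 0, 1 and 2. PDGF alone gave 24.7, 29.1 and 34.6, the lowest group for this gene. At 24 h the values were 363, 269.9 and 299.8 with JQ1 plus PDGF and 93.6, 76.8 and 76.8 with PDGF alone. No 2 of the 5 groups overlapped, and the order from low to high was PDGF 2 h, unstimulated (36.9 and 41.6), PDGF 24 h, JQ1 plus PDGF 2 h and JQ1 plus PDGF 24 h. The ratio of JQ1 plus PDGF to PDGF was 5.82 at 2 h and 3.77 at 24 h.

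Pip5k1c was highest late. Its normalised FPKM was 398, 282 and 329 with JQ1 plus PDGF at 24 h, against 32.0, 30.6 and 31.3 with PDGF alone, a ratio of means of 10.7. At 2 h it was 31.9, 33.9 and 33.5 with JQ1 plus PDGF and 9.32, 14.3 and 13.4 with PDGF alone, a ratio of 2.68. The JQ1 plus PDGF libraries at 2 h and the PDGF libraries at 24 h overlapped in the normalised values (33.1 ± 1.06 and 31.3 ± 0.70, SD, n = 3 each). This pair was not tested. In the unnormalised values, where the means were 40.8 ± 0.52 and 23.3 ± 0.38 (SD, n = 3 each), the 2 groups stood apart. Unstimulated cells had 15.6 and 16.6, above every PDGF library at 2 h. With JQ1 plus PDGF at 24 h the mean level of Pip5k1c lay above that of 98.5% of genes on this length-scaled measure, against 74.0% in unstimulated cells, and that of Mknk2 above 98.4%.

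**Figure D1:**
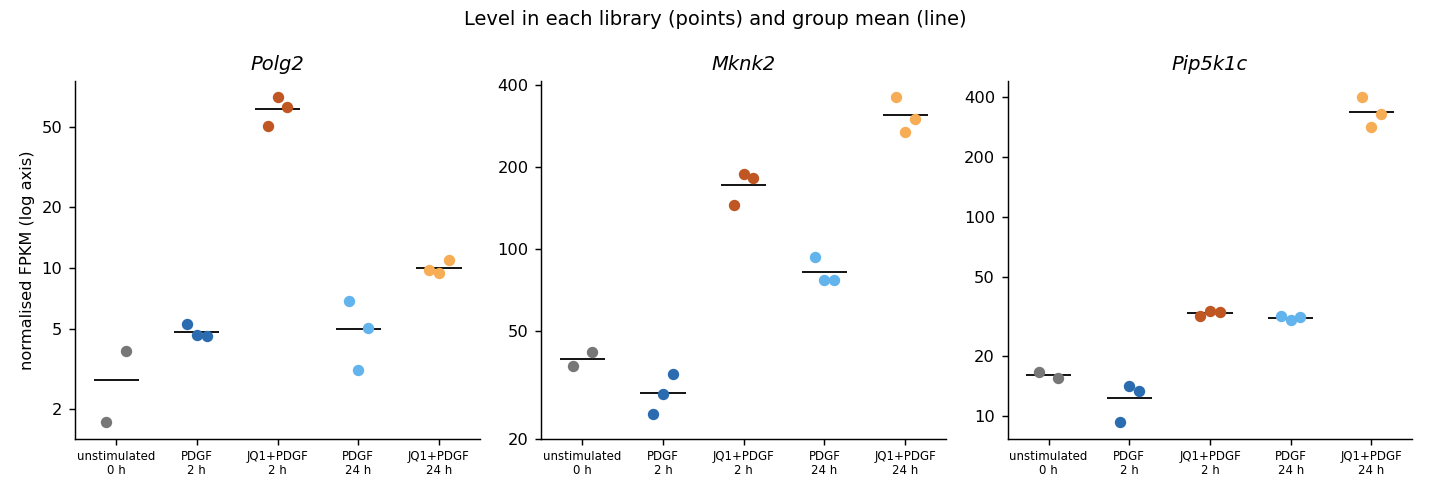
Normalised FPKM (log axis) of Polg2, Mknk2 and Pip5k1c in each of the 14 libraries, with 1 point per library and a line at the group mean (n = 2 unstimulated, n = 3 otherwise). Polg2 peaks at 61.4 with JQ1 plus PDGF at 2 h, Pip5k1c at 336 with JQ1 plus PDGF at 24 h, and Mknk2 is high in both JQ1 groups.

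On the log2(normalised FPKM + 1) scale of the limma fit, the JQ1 difference at 2 h was 3.41 ± 0.24 for Polg2, 2.51 ± 0.15 for Mknk2 and 1.37 ± 0.15 for Pip5k1c (SE), and these ranked 5, 15 and 101 from the highest among 10133 genes tested. At 24 h the differences were 0.93 ± 0.24, 1.90 ± 0.15 and 3.37 ± 0.15, with ranks of 183, 40 and 6. The JQ1 groups of all 3 genes lay above their PDGF groups without overlap at both times, where 8.99% of all genes did so at 2 h and 6.99% at 24 h; nothing is read from this, since the genes were chosen for it. The median difference of all genes was -0.29 at 2 h and -0.48 at 24 h, and when unnormalised values were median-centred instead, these medians were about 0. On that scale 2003 genes passed as higher and 2143 as lower at 2 h, and 2305 and 2578 at 24 h (734 and 3449, and 467 and 4918, on the authors' scale). Polg2 then differed by 1.42 at 24 h, more than 1.5 times its value on the authors' scale. Smooth muscle markers summed to 426 to 496 with JQ1 plus PDGF at 24 h against 1387 to 1650 with PDGF (unnormalised FPKM), and fibroblast markers to 6.10 to 8.44 against 95.7 to 115. Leukocyte markers summed to 9.53 to 17.1 with JQ1 at 24 h against 36.9 to 52.9 without, but they did not move together. Mean Cd14 was 4.20 normalised FPKM with JQ1 plus PDGF at 24 h against 57.9 with PDGF, while Cd68 was 7.77 against 0.633. At 2 h smooth muscle markers summed to 17799 to 18179 with JQ1 and 11859 to 12566 without, leukocyte markers to 6.46 to 11.2 and 17.7 to 22.6, and fibroblast markers to 90.2 to 108 and 102 to 115. Smooth muscle markers did not move together at 2 h in normalised FPKM. Mean Tagln was 6621 with JQ1 plus PDGF and 4771 with PDGF, Acta2 6198 and 6012, and Smtn 54.1 and 53.6. Cnn1 was 515 and 675, Myl9 959 and 1125, and Myh11 2.68 and 5.01. The part of these shifts in the results was not tested.

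The change between 2 h and 24 h within JQ1-treated cells rests on the libraries in which the genes had been chosen as high, so it is also a description, without a test. The level of Polg2 at 24 h was 0.164 of that at 2 h, a difference of -2.49 ± 0.24 on the log2 scale (SE). For Pip5k1c the ratio of means was 10.2 and the difference 3.29 ± 0.15. For Mknk2 the ratio was 1.81 and the difference 0.85 ± 0.15. The median of all genes was 0.14. The groups of all 3 genes did not overlap, as for 35.9% of all genes upwards and 21.7% downwards, and nothing is read from this. The differences of the JQ1 effect between the times were -2.48 ± 0.34 for Polg2, -0.61 ± 0.21 for Mknk2 and 2.00 ± 0.21 for Pip5k1c (log2, SE), given without a test because both of its parts were used in choosing the genes (4.82% of all genes passed as higher and 17.5% as lower).

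**Figure D2:**
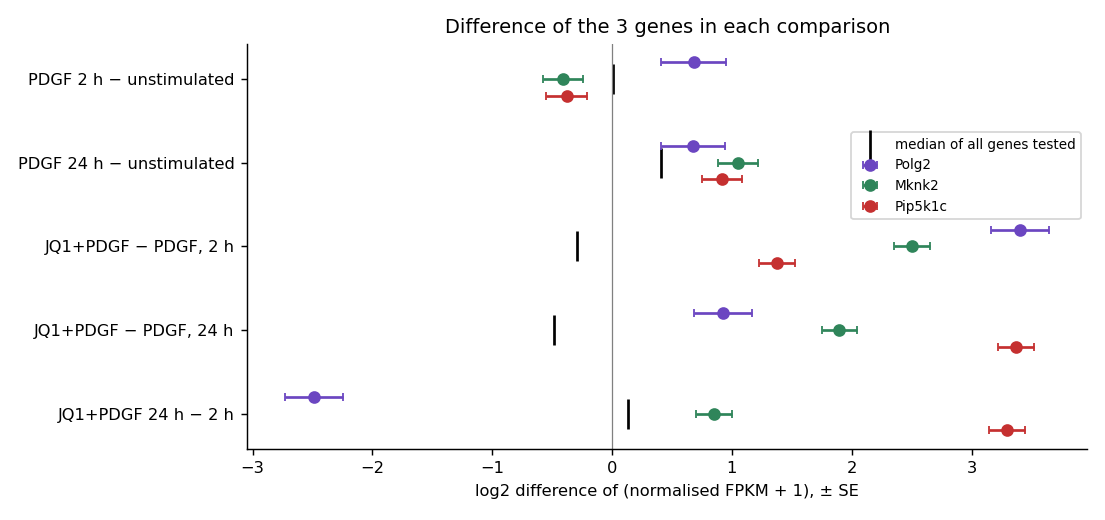
Log2 difference of normalised FPKM + 1, with SE, for the 3 genes in 5 comparisons; black ticks mark the median of all genes tested. Polg2 and Pip5k1c lie on opposite sides of 0 (-2.49 and 3.29) for JQ1 plus PDGF at 24 h minus 2 h.

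The next comparisons ask what PDGF alone did to these transcripts. The PDGF libraries are those against which the genes had been chosen as higher with JQ1. Low values there would favour that choice, so the p-values of the members in all comparisons of PDGF alone may be biased by it. At 2 h, 0 of the 3 genes passed in limma (17.7% of all genes passed as higher and 12.7% as lower), although 3 had an unadjusted p under 0.05. The groups did not overlap, with Polg2 higher (26.4% of all genes) and Mknk2 and Pip5k1c lower (24.1%). Polg2 differed by 0.68 (95% interval 0.11 to 1.26, adjusted p = 0.0686), Mknk2 by -0.41 (interval -0.77 to -0.06, adjusted p = 0.0754) and Pip5k1c by -0.38 (interval -0.74 to -0.02, adjusted p = 0.101). With median-centred values Mknk2 (-0.47, adjusted p = 0.00278) and Pip5k1c (-0.43, adjusted p = 0.00514) passed as lower. Without PDGF library 2 at 2 h Mknk2 passed (-0.53, adjusted p = 0.0324), and without PDGF library 1 at 2 h Pip5k1c passed (-0.49, adjusted p = 0.0443).

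After 24 h of PDGF, Mknk2 and Pip5k1c had risen above unstimulated cells, by 1.05 ± 0.17 (adjusted p = 0.000179) and 0.92 ± 0.17 (adjusted p = 0.000542), with all 3 PDGF libraries above both unstimulated ones, as for 61.1% of all genes. So 2 of 3 genes passed as higher, where 37.7% of all genes did and the median of all genes was 0.41. On the median-centred scale the differences were 0.60 (adjusted p = 0.000661) and 0.48 (adjusted p = 0.00354), with 1478 genes passing as higher and 1341 as lower, in place of 3823 and 491. Polg2 differed by 0.68 ± 0.27 and did not pass (adjusted p = 0.0556, interval 0.10 to 1.25). Its value rested on the unstimulated pair: it was 1.09 (adjusted p = 0.0135) without unstimulated library 1 and 0.26 without unstimulated library 0, and it was 0.92 (adjusted p = 0.0124) without PDGF library 1 at 24 h and 0.32 with median-centred values. At 2 h the same pair moved Polg2 from 1.10 without library 1 (adjusted p = 0.0199) to 0.26 without library 0, and it passed without PDGF library 1 at 24 h (0.68, adjusted p = 0.0454).

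Between 2 h and 24 h of PDGF alone, Mknk2 rose by 1.46 ± 0.15 (adjusted p = 1.72e-06) and Pip5k1c by 1.30 ± 0.15 (adjusted p = 5.5e-06). Polg2 differed by -0.01 ± 0.24 (adjusted p = 0.984, interval -0.52 to 0.51). So 2 of 3 genes passed as higher and 0 as lower, where 44.5% of all genes passed as higher and 11.8% as lower and the median of all genes was 0.39 (2659 genes higher and 2579 lower with median-centred values, in place of 4510 and 1193). Both groups are ones against which the genes had been chosen, so these p-values may be biased and nothing is read from the count. The PDGF groups of Mknk2 and Pip5k1c did not overlap, as for 46.7% of all genes upwards, while those of Polg2 did.

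Partner and sister genes were measured alongside. Polg, the catalytic partner of Polg2, had 14.6, 26.5 and 22.0 normalised FPKM with JQ1 plus PDGF at 2 h and 10.4, 13.1 and 16.7 with PDGF, overlapping groups with a difference of 0.60 ± 0.21 that passed (adjusted p = 0.033). That call was lost in 7 of 20 alternative settings. They include the fit of only the groups compared (adjusted p = 0.101) and the fits without PDGF library 0 (0.44) or 1 (0.60) or JQ1 plus PDGF library 1 (0.42) or 2 (0.55) at 2 h. At 24 h Polg differed by 0.37 ± 0.21 (adjusted p = 0.15; 0.88 with median-centred values, adjusted p = 0.00114). The accessory subunit was thus below its partner in unstimulated cells (2.79 ± 1.52 against 14.2 ± 2.29 normalised FPKM, SD, n = 2) and above it with JQ1 plus PDGF at 2 h (61.4 ± 9.79 against 21.1 ± 6.0, SD, n = 3), on a length-scaled level.

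Mknk1, which encodes the sister kinase MNK1, differed with JQ1 by 0.03 ± 0.19 at 2 h (adjusted p = 0.904) and by -0.46 ± 0.19 at 24 h (adjusted p = 0.0567). Its mean level of 9.45 ± 0.61 normalised FPKM with JQ1 plus PDGF at 24 h compared with 311 ± 47.3 for Mknk2 (SD, n = 3 each). Pip5k1a, the alpha form of the lipid kinase, was lower with JQ1 at 2 h (-0.44 ± 0.13, adjusted p = 0.0132) and at 24 h (-0.56 ± 0.13, adjusted p = 0.00177), but neither call held with median-centred values (-0.13 and -0.06), and that at 2 h was lost in 3 of 20 alternative settings in all. Pip5k1b, the beta form, was at or below 0.63 unnormalised FPKM in every library and was not tested. Pip5k1c was thus the lower of the alpha and gamma forms in unstimulated cells (16.1 ± 0.71 against 19.0 ± 1.84, SD, n = 2) and the higher with JQ1 plus PDGF at 24 h (336 ± 58.6 against 16.1 ± 0.99, SD, n = 3).

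Genes that act beside each member were counted from lists chosen for role. In mitochondrial DNA maintenance the number of genes that passed depended on the scale. Of 21 tested genes other than Polg2, 2 rose and 3 fell at 2 h and 2 rose and 2 fell at 24 h, where 7.24% of all genes passed as higher and 34% as lower at 2 h, and 4.61% and 48.5% at 24 h. Medians were -0.23 and -0.01, against -0.29 and -0.48 for all genes. Slc25a33, a pyrimidine nucleotide carrier of mitochondria, rose by 0.99 ± 0.15 at 24 h (adjusted p = 7.03e-05). Its difference of 0.49 ± 0.15 at 2 h (adjusted p = 0.0187) did not pass without PDGF library 2 (0.47) or JQ1 plus PDGF library 1 (0.40) or 2 (0.48). Lonp1, the matrix protease that degrades the packaging factor TFAM, was -0.38 ± 0.12 at 2 h, a call lost in 6 of 20 alternative settings, and rose by 0.75 ± 0.12 at 24 h (adjusted p = 7.45e-05). Lig3, the mitochondrial DNA ligase, fell by 1.28 ± 0.18 at 24 h (adjusted p = 2.89e-05). Gabpa, a transcription factor for respiratory genes, was lower at 24 h (-0.80 ± 0.15), a call lost with median-centred values (-0.28, adjusted p = 0.0559), as was that of Rnaseh1, a primer-removing nuclease, at 2 h (-0.79 ± 0.27), which was lost in 6 of 20. With median-centred values 10 genes of the list rose and 1 fell at 24 h, and 3 rose and 0 fell at 2 h. Without PDGF library 0 at 2 h, 8 fell at 2 h, and without JQ1 plus PDGF library 1 at 2 h, 0 rose and 1 fell.

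The genes around MNK2 and eIF4E moved in both directions, as did all genes. Of 26 tested genes other than Mknk2, 4 rose and 6 fell at 2 h and 2 rose and 11 fell at 24 h. Of all genes 7.24% passed as higher and 34% as lower at 2 h, and 4.61% and 48.5% at 24 h. List medians were -0.17 and -0.28, against -0.29 and -0.48 for all genes. Mapk3, the gene of the MNK activator ERK1, fell by 1.23 ± 0.12 at 2 h and 1.83 ± 0.12 at 24 h (adjusted p = 2.05e-06 and 5.83e-09), to 32.8 from 120 normalised FPKM at 24 h. Mapk11, which encodes a p38 kinase, fell by 1.41 ± 0.39 at 24 h (adjusted p = 0.00685) from a low level. Hnrnpa1, an RNA-binding substrate of MNK, fell by 1.07 ± 0.091 and 1.48 ± 0.091 at the 2 times.

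Eif4ebp1, an inhibitor of eIF4E, fell by 1.36 ± 0.11 and 0.88 ± 0.11. Its relative Eif4ebp2 rose by 1.15 ± 0.16 at 2 h (adjusted p = 4.71e-05) and stood at 0.09 ± 0.16 at 24 h. The helicase gene Eif4a1 rose by 1.29 ± 0.13 at 24 h (adjusted p = 7.41e-07), to 1244 from 505 normalised FPKM. Eif4e itself, the gene of the MNK2 substrate, differed by -0.22 and 0.07 (adjusted p = 0.497 and 0.833). With median-centred values 10 genes rose at each time, 6 fell at 2 h and 4 at 24 h.

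On the authors' scale most genes of the phosphoinositide list that passed were lower, as were most of all genes that passed, but at 2 h this flipped with median-centred values. Of 30 tested genes other than Pip5k1c, 4 rose and 7 fell at 2 h and 2 rose and 17 fell at 24 h. Of all genes 7.24% passed as higher and 34% as lower at 2 h, and 4.61% and 48.5% at 24 h. List medians were -0.24 and -0.55, against -0.29 and -0.48 for all genes. With median-centred values 8 genes of the list were higher and 2 lower at 2 h, and 6 higher and 11 lower at 24 h. Synj2, a lipid phosphatase that removes the product of Pip5k1c, was -0.62 ± 0.23 at 2 h, a call lost in 12 of 20 alternative settings, and fell by 1.94 ± 0.23 at 24 h (adjusted p = 5.37e-06), to 1.76 from 9.62 normalised FPKM. Plcb4, a phospholipase C that cleaves that product, fell at both times (-1.15 ± 0.16 and -1.22 ± 0.16). Plcb1 (-1.29 ± 0.24) fell at 24 h, as did the phosphatase gene Inpp5e (-1.18 ± 0.29). The receptor genes Itpr3 (-1.26 ± 0.21) and Itpr2 (-1.18 ± 0.36), whose products release calcium, fell at 24 h too. Levels were low for Plcb1 (to 0.771 from 3.26 normalised FPKM) and Itpr2 (to 0.338 from 2.13). The call of Itpr2 was lost without PDGF library 0 at 24 h (-0.93, adjusted p = 0.0602).

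**Figure D3:**
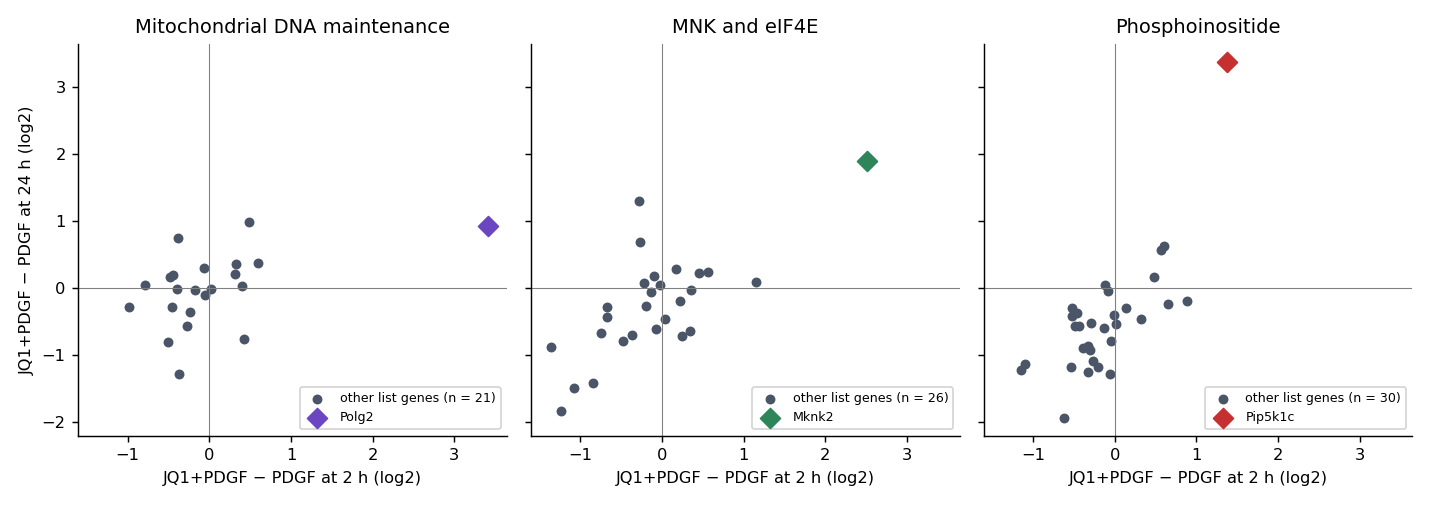
JQ1 plus PDGF minus PDGF (log2 of normalised FPKM + 1) at 2 h on the x axis and at 24 h on the y axis for the tested genes of each list (21, 26 and 30 grey points), with the member as a diamond. Each member was chosen for its JQ1 response, so its distance from the grey points is a description.

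The same lists were counted for PDGF alone against unstimulated cells. After 2 h of PDGF 17.7% of all genes passed as higher and 12.7% as lower. In mitochondrial DNA maintenance 3 genes rose and 2 fell, against 9 and 1 of the MNK and eIF4E list and 6 and 3 of the phosphoinositide list. With median-centred values these counts at 2 h were 3 and 3, 12 and 2, and 6 and 7. After 24 h of PDGF 37.7% of all genes passed as higher and 4.85% as lower. The counts of the lists were then 1 and 0, 9 and 1, and 13 and 2. With median-centred values they were 0 and 0, 4 and 6, and 5 and 6, so that the balance of the latter 2 lists turned. The list medians at 24 h were 0.39, 0.36 and 0.46, beside 0.41 for all genes. Without unstimulated library 0 the numbers higher at 24 h were 0, 5 and 6.

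The genes next to each member on the chromosome were measured as well, in the order of the GRCr8 annotation and counting only genes with a row in the files. Cactin, a splicing-related gene, and Tbxa2r, the thromboxane A2 receptor gene, follow Pip5k1c downstream on the same strand. Both were higher with JQ1 at 24 h. Tbxa2r had 13.2, 10.4 and 10.6 normalised FPKM with JQ1 plus PDGF and 1.43, 2.88 and 1.92 with PDGF, groups that did not overlap, and rose by 2.03 ± 0.23 (adjusted p = 3.11e-06). Cactin had 40.9, 33.7 and 37.0 against 16.4, 14.5 and 14.4, and rose by 1.24 ± 0.19 (adjusted p = 4.85e-05). At 2 h neither passed (-0.54 ± 0.23 and 0.19 ± 0.19), though Cactin did with median-centred values (0.51, adjusted p = 0.0384). On the other side of Pip5k1c, Apba3 was -0.34 ± 0.13 and -0.35 ± 0.13 (calls lost in 15 and 4 of 20 alternative settings, and at 24 h turned to 0.16 with median-centred values), and Tjp3 reached at most 1.17 unnormalised FPKM and was not tested.

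Ddx5, an RNA helicase gene that lies upstream of Polg2 on the same strand, had 1013, 1132 and 1047 normalised FPKM with JQ1 plus PDGF at 2 h and 602, 635 and 749 with PDGF, and rose by 0.69 ± 0.13 (adjusted p = 0.000686). At 24 h it differed by 0.15 ± 0.13 (adjusted p = 0.345; 0.65 with median-centred values, adjusted p = 1.03e-06). The microRNA locus Mir3064, a short gene within Ddx5 whose values are uncertain for that reason, differed by 0.19 ± 0.59 and 0.09 ± 0.59. Milr1 and Pecam1, downstream of Polg2, reached at most 2.02 and 0.041 unnormalised FPKM and were not tested. Around Mknk2, Ap3d1 and Scamp4 rose at 24 h (0.75 ± 0.13 and 0.80 ± 0.13), Csnk1g2 was lower at both times (-0.92 ± 0.14 and -0.52 ± 0.14, the latter lost with median-centred values), and Mob3a was lower at 2 h (-0.49 ± 0.17, lost in 8 of 20 alternative settings; with median-centred values it was 0.46 higher at 24 h). The sources used here do not say whether strand was used in counting, so reads of overlapping genes may not have been separated.

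**Figure D4:**
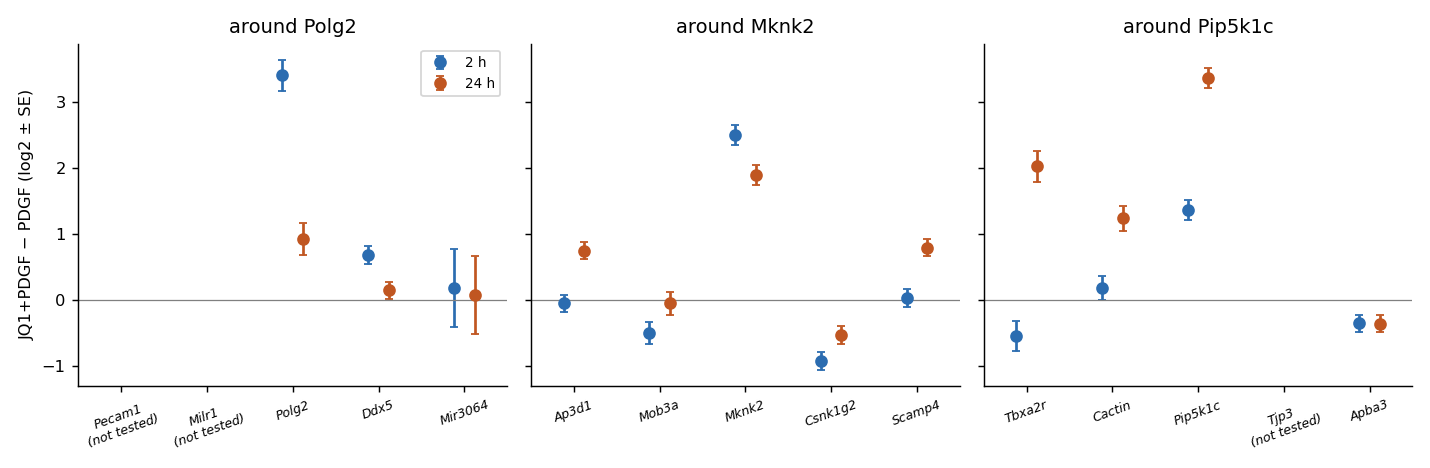
JQ1 plus PDGF minus PDGF (log2 of normalised FPKM + 1, with SE) at 2 h and 24 h for each member and the 2 nearest measured genes on each side, in chromosomal order. Beside Pip5k1c, Tbxa2r (2.03) and Cactin (1.24) are higher at 24 h, and beside Polg2, Ddx5 (0.69) is higher at 2 h.

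Genes with the most similar pattern over the 14 libraries were found by Pearson correlation of log2(normalised FPKM + 1), a description in which the libraries share 5 groups. For Mknk2 the closest was Hexim1 (r = 0.986), which encodes an inhibitor of the P-TEFb kinase and is a known marker of BET inhibition. Hexim1 went from 22.7 ± 4.46 with PDGF at 2 h to 98.5 ± 5.26 with JQ1, and from 59.1 ± 5.58 to 172 ± 15.0 at 24 h (normalised FPKM, SD, n = 3 each). Acly, which encodes ATP citrate lyase (r = 0.973), the calcium sensor gene Stim2 (0.951), Dynll2 (0.947) and Fzd9 (0.945) followed. For Pip5k1c the closest were the arrestin-domain gene Arrdc2 (0.988) and Ddit3 (0.985), which encodes the stress transcription factor CHOP, then Thnsl1 (0.976), Mfsd12 (0.975) and Mast3 (0.971). Arrdc2 stood at 118 ± 21.0 with JQ1 plus PDGF at 24 h and 6.14 ± 1.58 with PDGF. Fzd9 and Thnsl1 were low. Fzd9 averaged 2.73 normalised FPKM with JQ1 plus PDGF at 2 h and 0.161 with PDGF, and Thnsl1 2.40 and 0.657 at 24 h.

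For Polg2 the closest were Hsd11b2 (0.948), the small heat shock protein gene Hspb1 (0.939), Fam222a (0.929), the Notch-modifying glycosyltransferase gene Lfng (0.922) and Raly (0.921). Hsd11b2 and Fam222a were low. They averaged 0.124 and 0.191 normalised FPKM in unstimulated cells and 0.317 and 0.230 with PDGF at 2 h. Hsd11b2 averaged 2.63 with JQ1 plus PDGF at 2 h, its highest group. Lfng went from 30.6 ± 6.70 to 112 ± 10.3 with JQ1 at 2 h and stood at 20.4 ± 3.65 and 24.4 ± 4.14 at 24 h. Between the members r was 0.885 for Mknk2 and Pip5k1c, 0.605 for Polg2 and Mknk2 and 0.219 for Polg2 and Pip5k1c over the 14 libraries, and Spearman's rho was 0.982, 0.692 and 0.688. These values are shaped by how the genes were chosen, and the libraries of a group lie close together.

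**Figure D5:**
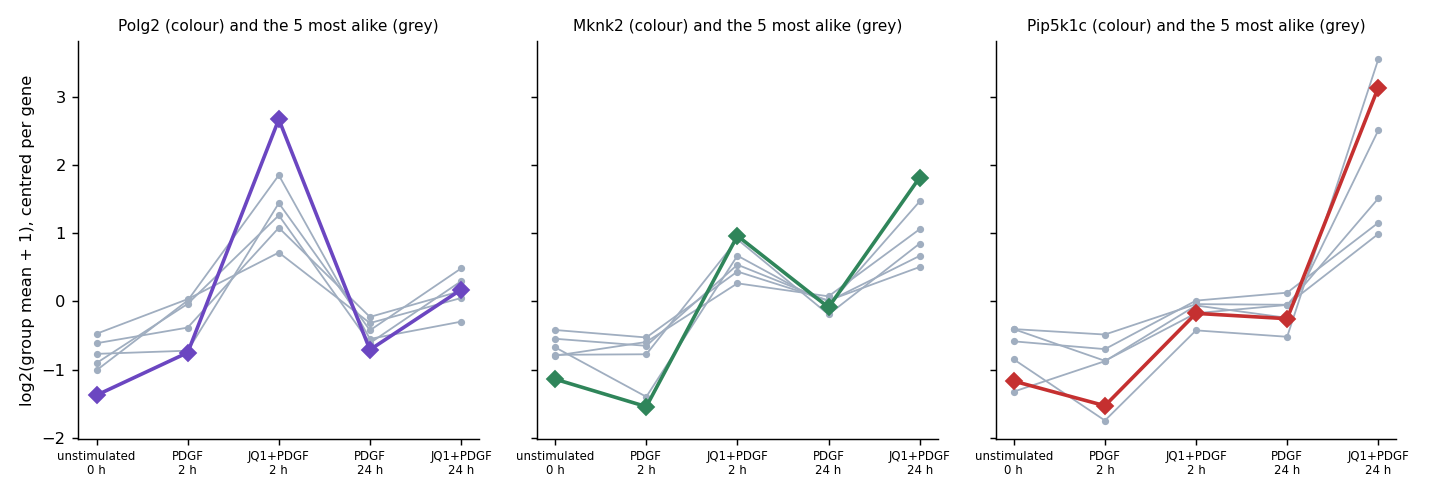
Log2 of the group mean normalised FPKM + 1, centred on each gene's own mean over the 5 groups, for each member (colour) and the 5 genes with the highest Pearson r over the 14 libraries (grey). Polg2 and its 5 genes peak with JQ1 plus PDGF at 2 h, and Pip5k1c and its 5 genes with JQ1 plus PDGF at 24 h.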

How the data were processed

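Polyadenylated RNA was sequenced as 40 base single reads from a stranded kit, with ERCC spike-ins, per the labels' protocols. The submitters' processing notes name HISAT, Cufflinks 2.0.0 and the build rn6. The authors deposited 2 tables of 17404 features (92 of them spike-ins), 1 of unnormalised FPKM and 1 of normalised FPKM. The sources used here do not give the normalisation, under which genes with an FPKM of 0 in every library took 0.088 to 0.111. Other values of 0 could fall outside that range, such as Pip5k1b in PDGF library 1 at 2 h (0.127). Depth is unknown, so values carry no counting interval.

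Columns were matched to groups by name; they end in digits where titles end in letters. Differences were fitted with limma (version 3.58.1, R version 4.3.3) to log2(normalised FPKM + 1), a scale that understates changes of low values. The model held all 5 groups (9 residual degrees of freedom, empirical Bayes with a mean trend) and 10133 genes with at least 1 normalised FPKM in at least 2 libraries. A gene passed when its p, adjusted by Benjamini-Hochberg over these genes, was under 0.05. The code was tested on simulated data.

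The members, lists, tests and alternatives were chosen with earlier results of these data known. Named are the members, their paralogs, the 2 nearest measured genes on each side, the 5 most similar genes, and up to 6 genes of each list that passed with JQ1 and differed most; Eif4e was added after its values were seen. Of the list genes 8 had no row and are not analysed here. Median-centred values are unnormalised FPKM over median-of-ratios size factors (1.015 to 1.024; 9980 genes tested). Sequences are from RefSeq, GRCr8.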

Additional observations from a re-analysis of the deposited data

Results flagged for a closer look

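The effect of JQ1 differed between 24 h and 2 h for 15 of the genes named beside the members. Values are from the interaction term of the limma fit (log2, SE, adjusted p). Of all genes 4.82% passed as higher and 17.5% as lower. The list genes among the 15 had been named because they passed with JQ1 at 2 h or 24 h in these libraries. Their adjusted p is shaped by that choice, and nothing is read from the count. Of the neighbours of Pip5k1c, Tbxa2r differed by 2.57 ± 0.33 (adjusted p = 5.39e-05) and Cactin by 1.05 ± 0.26 (0.00979), each more raised at 24 h. Beside Mknk2, Ap3d1 differed by 0.79 ± 0.18 (0.0061) and Scamp4 by 0.77 ± 0.19 (0.00877). Ddx5, beside Polg2, differed by -0.54 ± 0.18 (0.0481), and was more raised at 2 h.

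Among the genes around eIF4E, the difference was 1.57 ± 0.18 for Eif4a1 (2.07e-05), -1.07 ± 0.22 for Eif4ebp2 (0.00291), -0.60 ± 0.17 for Mapk3 (0.0167), -0.41 ± 0.13 for Hnrnpa1 (0.0306) and 0.49 ± 0.16 for Eif4ebp1 (0.0407). In mitochondrial DNA maintenance it was 1.13 ± 0.17 for Lonp1 (0.000193) and -0.91 ± 0.26 for Lig3 (0.0189). In the phosphoinositide list it was -1.32 ± 0.33 for Synj2 (0.00987), -1.24 ± 0.34 for Plcb1 (0.0167) and -0.93 ± 0.29 for Itpr3 (0.0323). Plcb1 averaged 0.251 normalised FPKM with PDGF at 2 h and 0.209 with JQ1 plus PDGF. That left little room for a fall at 2 h, so nothing is read from its interaction term. Of the 20 alternative settings, the difference no longer passed in 13 for Ddx5, 10 for Eif4ebp1, 10 for Hnrnpa1, 7 for Itpr3, 2 for Lig3 (without JQ1 plus PDGF library 2 at 2 h or at 24 h), 1 for Mapk3 (without PDGF library 1 at 2 h and library 0 at 24 h) and 1 for Plcb1 (without JQ1 plus PDGF library 1 at 24 h).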

How the results depend on the processing

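No paired analysis was possible because the table columns carry digits and not the letters that titles share between groups. Of 540 alternative values of the members over 20 settings, 519 counted as unchanged, 12 descriptions moved further and 9 tests came to pass. The causes were not tested. Unchanged descriptions kept their direction and moved by less than the replicate spread. Unchanged tests kept their side of the threshold, and their direction wherever they passed. Polg2 between 2 h and 24 h of PDGF never passed, and ran from -0.23 to 0.24 when 1 library was left out. The change between 2 h and 24 h within JQ1-treated cells was counted here among the tests, although it is given as a description. With a pseudocount of 0.5 Polg2 passed after 24 h of PDGF (0.76, adjusted p = 0.0499). With median-centred values the PDGF differences at 2 h of Mknk2 (-0.47) and Pip5k1c (-0.43) passed. The JQ1 differences were then 3.75, 2.84 and 1.70 at 2 h and 1.42, 2.41 and 3.88 at 24 h for Polg2, Mknk2 and Pip5k1c, and JQ1 plus PDGF at 2 h minus unstimulated was 2.37 for Mknk2 and 1.26 for Pip5k1c. Leaving out 1 library gave 0.26 to 1.10 for Polg2 after 2 h of PDGF and 0.26 to 1.09 after 24 h, -0.53 to -0.30 for Mknk2 and -0.49 to -0.21 for Pip5k1c after 2 h, and 3.67 to 4.51 and 1.18 to 2.02 for Polg2 with JQ1 plus PDGF at 2 h and 24 h minus unstimulated. Of 3480 values of other named genes, 3203 kept their call, 201 lost and 69 gained one, and 7 reversed, all with median-centred values: Ddx5 (-0.19) and Mapk3 (-0.026) after 24 h of PDGF, Csnk1g2 (-0.29) and Lonp1 (-0.30) between 2 h and 24 h of PDGF, Ap3d1 with JQ1 at 2 h (0.29), and Mob3a (0.46) and Apba3 (0.16) with JQ1 at 24 h.

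List counts follow in the order mitochondrial DNA, MNK and eIF4E, phosphoinositide. With median-centred values the numbers higher were 0, 4 and 5 after 24 h of PDGF, 3, 10 and 8 with JQ1 at 2 h and 10, 10 and 6 at 24 h. The numbers lower were 3, 2 and 7 after 2 h of PDGF, 0, 6 and 6 after 24 h, 0, 6 and 2 with JQ1 at 2 h and 1, 4 and 11 at 24 h. Without the filter on low values, mitochondrial DNA genes higher numbered 2 after 24 h of PDGF and 1 with JQ1 at 2 h, phosphoinositide genes higher with JQ1 at 24 h numbered 1, and genes lower after 2 h of PDGF numbered 1 (mitochondrial DNA) and 2 (MNK and eIF4E). Without the mean trend 2 mitochondrial DNA genes were higher after 24 h of PDGF. In fits of only the groups compared, genes higher numbered 1 (mitochondrial DNA) and 2 (phosphoinositide) after 2 h of PDGF, 5 (mitochondrial DNA) and 14 (MNK and eIF4E) after 24 h, and 0 (mitochondrial DNA) with JQ1 at 2 h; genes lower numbered 0, 0 and 0 after 2 h of PDGF, 0 (mitochondrial DNA) and 2 (phosphoinositide) with JQ1 at 2 h, and 4 (mitochondrial DNA) at 24 h. Without PDGF library 1 at 2 h and PDGF library 0 at 24 h together, genes higher numbered 1 and 2 (mitochondrial DNA) after 2 h and 24 h of PDGF and 1 (phosphoinositide) with JQ1 at 24 h; genes lower numbered 4, 0 and 5 after 2 h of PDGF, and 4 (mitochondrial DNA) with JQ1 at 24 h.

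Leaving out 1 library, mitochondrial DNA genes higher numbered 1 to 3 after 2 h and 0 to 4 after 24 h of PDGF, 0 to 2 with JQ1 at 2 h and 2 at 24 h, and genes lower 0 to 3, 0, 1 to 8 and 2 to 5. For MNK and eIF4E these ranges were 7 to 9, 5 to 11, 3 to 4 and 2 to 3 higher, and 0 to 2, 0 to 1, 6 to 7 and 8 to 13 lower. For phosphoinositide genes they were 3 to 7, 6 to 15, 3 to 5 and 0 to 2 higher, and 0 to 5, 1 to 2, 3 to 8 and 15 to 19 lower.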
